A study of Mus musculus with 9 samples.

Results

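The 55 genes described here lie on mouse chromosome 15 within 10 Mb of Nr4a1, one of the 2 genes targeted in the DKO cells. They were taken by symbol from a fixed list that leaves out Nr4a1 itself, and the list goes by position and not by measured values. All 55 were in the table of 24594 genes, and 51 passed the filter of at least 1 RPKM in at least 2 libraries, as did 11569 genes in all. RPKM is the number of exonic reads of a gene, scaled to the length of its exons and to all exonic reads of the library. The 4 members under the filter were Espl1, Gpd1, Smagp and Fkbp11. Acvrl1 passed only through its ctl libraries and Lima1 only through DKO-labelled ones, so their passing supports nothing about a difference. The window holds 239 genes besides Nr4a1, of which 106 passed the filter, so 55 tested genes of the window are not members.

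Bulk RNA sequencing was done on 9 libraries of semimature CD4 single-positive thymocytes, sorted as CD4+ CD8- CD69+ Valpha2+ VBeta5+, which carry the OT-II transgenic T cell receptor for an ovalbumin peptide. Irradiated hosts had been reconstituted for 4.7 weeks with mixed marrow of OTII-DKO donors (Nr4a1-/- Nr4a3-/- on C57BL/6), OTII-ctl donors (Nr4a1+/+ Nr4a3+/+, an F1 of the OT-II strain B6.Cg-Tg(TcraTcrb)425Cbn/J with BoyJ) and donors without the transgene. WT hosts are given here as BoyJ mice, while the paper's methods describe congenic WT mice as F1 progeny of RIPmOVA and BoyJ crosses. RIPmOVA hosts were an F1 with BoyJ that carries membrane-bound ovalbumin under the rat insulin promoter, so that medullary thymic epithelium presents the antigen. The groups were ctl from WT hosts (n = 2), DKO-labelled from WT hosts (n = 3), ctl from RIPmOVA hosts (n = 2) and DKO-labelled from RIPmOVA hosts (n = 2). Each of the 5 chimeras is 1 mouse, and 4 of them gave both genotypes. The ctl donors differ from the DKO donors in strain as well as at the targeted genes, and effects of the missing proteins, of DNA carried along with the targeted alleles and of donor strain cannot be told apart by this design. By the paper's methods the Nr4a3 allele was made on C57BL/6, while the strain of origin of the Nr4a1 allele is not named there.

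Nr4a1 and Nr4a3 encode orphan nuclear receptors that T cell receptor signals induce within hours, and both bind DNA at an extended half-site. A targeted allele that is bred onto another strain keeps a stretch of the donor chromosome around it, because recombination seldom separates neighbouring genes, so genes beside a knocked-out locus are often examined for their own differences. The genes around Nr4a1 have varied functions, among them receptors for transforming growth factor beta family ligands, a subunit of a chromatin remodeller and a cluster of alpha tubulins.

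The promoter sequences of 4 of the 5 members called below, all but Acvrl1, are shown because these genes differed between the genotypes and Nr4a proteins bind DNA directly. They are the 250 bases before an annotated RefSeq start in GRCm38.p6, written 5' to 3' on the strand of the gene, and capitals mark the letters AGGTCA on either strand. The Smarcd1 window is chr15:99702037-99702286 on the plus strand, and the Irak4 window is chr15:94543410-94543659 on the plus strand. The Amigo2 window is chr15:97247288-97247537 on the minus strand, and the Prickle1 window is chr15:93595903-93596152 on the minus strand, at the upstream of 2 annotated starts.
Smarcd1: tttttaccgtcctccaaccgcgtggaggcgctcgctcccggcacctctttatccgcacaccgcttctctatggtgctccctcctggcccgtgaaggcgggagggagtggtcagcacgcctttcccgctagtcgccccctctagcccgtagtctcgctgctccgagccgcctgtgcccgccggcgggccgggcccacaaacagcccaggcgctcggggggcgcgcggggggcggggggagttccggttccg
Irak4: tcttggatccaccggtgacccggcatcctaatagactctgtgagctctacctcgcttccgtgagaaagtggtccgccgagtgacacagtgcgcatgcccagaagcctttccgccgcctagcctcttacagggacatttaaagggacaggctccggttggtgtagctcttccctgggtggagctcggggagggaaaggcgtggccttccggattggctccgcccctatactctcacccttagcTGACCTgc
Amigo2: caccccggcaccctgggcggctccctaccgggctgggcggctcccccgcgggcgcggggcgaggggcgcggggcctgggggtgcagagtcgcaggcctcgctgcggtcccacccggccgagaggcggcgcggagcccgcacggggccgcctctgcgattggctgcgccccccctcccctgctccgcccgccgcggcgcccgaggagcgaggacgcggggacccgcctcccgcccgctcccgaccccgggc
Prickle1: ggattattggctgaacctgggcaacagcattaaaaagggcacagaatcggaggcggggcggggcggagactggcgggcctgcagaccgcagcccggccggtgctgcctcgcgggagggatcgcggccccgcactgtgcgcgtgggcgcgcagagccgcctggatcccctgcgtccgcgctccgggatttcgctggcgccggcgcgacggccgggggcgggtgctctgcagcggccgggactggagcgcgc

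The full letters bound by Nr4a monomers, AAAGGTCA, were found on neither strand of these windows. Over all genes with such a window, 1.55% of 27025 held AAAGGTCA on either strand, and 0 of the 47 members with a window did. The shorter AGGTCA, which the longer letters contain and which was chosen after the values were seen, was in 15.8% of all genes and in 9 of the 47 members (19.1%). Of the 4 windows shown, that of Irak4 held it, as TGACCT near its end. A match is a description of letters and not of binding. GC content was 71.2% for Smarcd1, 59.6% for Irak4, 84.0% for Amigo2 and 74.0% for the Prickle1 window, and the median over all promoters was 52.4%.

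Recovered depth was 15520000 to 25060000 reads per library. All 7 markers of CD4 single-positive thymocytes were present, at 69.5 to 500.2 RPKM each in every library. Gene-level Nr4a1 was not lower in the DKO-labelled libraries, at 60.7 and 86.1 RPKM in ctl against 60.1, 80.2 and 87.7 in WT hosts and 260 and 229 against 282 and 235 in RIPmOVA hosts. Nr4a3, the other targeted gene, was at 0.181 and 0.189 RPKM in ctl against 0.294, 0.665 and 0.188 in WT hosts and at 5.66 and 3.72 against 16.5 and 14.1 in RIPmOVA hosts, where it was called higher in DKO-labelled libraries (log2 fold change 1.63, SE 0.28, adjusted p = 0.0238). Neither gene's RPKM was lower in the libraries labelled DKO, so the genotype labels could not be checked from these values. Gene-level RPKM does not show whether the reads come from transcripts that encode an intact protein. In the paper's methods, the donors were told apart by their CD45 congenic markers during sorting. The summed RPKM of olfactory and vomeronasal receptor genes, which thymocytes do not use, was 428 and 130 in ctl and 160, 440 and 111 in DKO-labelled libraries of WT hosts. The ctl libraries of RIPmOVA hosts had 200 and 73.2, and the DKO-labelled ones 473 and 633. Both DKO-labelled libraries of RIPmOVA hosts therefore lay above both ctl libraries in this measure, while the groups of WT hosts overlapped. Marker sums also moved with genotype in RIPmOVA hosts. In replicate order, the 5 endothelial markers summed to 47.5 and 55.7 RPKM in DKO-labelled against 31.1 and 35.6 in ctl libraries, mostly Pecam1 (45.6 and 53.6 against 30.1 and 35.3). The 4 epithelial markers summed to 11.01 and 7.18 against 6.73 and 4.87, mostly Epcam (10.2 and 5.78 against 6.24 and 4.66). The 4 myeloid markers summed to 30.9 and 29.9 against 53.3 and 41.1 RPKM. Lyz2 was at 2.12 and 2.83 RPKM in these DKO-labelled libraries against 18.7 and 8.44 in ctl, and Cst3 at 27.3 and 25.1 against 32.8 and 31.2. Sums of double-positive thymocyte (77.8 to 122 RPKM), B cell (2.52 to 8.31) and erythroid (0.142 to 14.1) markers overlapped between the genotypes in both hosts. The other endothelial, epithelial and myeloid markers were low in every library, at most 1.7 RPKM (Itgam), with Cdh5, Krt5 and Csf1r at most 0.42, 0.17 and 0.58 RPKM. Of the double-positive markers, Cd8b1 was at 54.5 to 96.4 RPKM and Dntt at 17.0 to 30.1 RPKM. No listed marker was at 0 in all libraries. The part of these cells in the results was not tested.

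With the genotype difference averaged over both hosts, 5 members differed by at least 1 on the log2 scale at an adjusted p of 0.05 or less in limma, and these are termed called. Acvrl1, Smarcd1 and Irak4 fell in DKO-labelled cells, and Amigo2 and Prickle1 rose. The 3 members that fell compare with 0.363% of all tested genes called lower in this average, and the 2 that rose with 0.285% called higher. In WT hosts alone 2 members fell, Acvrl1 and Smarcd1, where 0.0519% of tested genes did. None rose there at this threshold in limma, where 0.00864% of tested genes did. At an unadjusted p under 0.05, 7 of the 51 members were higher in WT hosts, as were 492 of the 11569 tested genes. In RIPmOVA hosts alone 3 members fell, with Irak4 added, against 0.562% of tested genes, and Amigo2 rose, against 0.51%. In bulk libraries, fewer cells that express a gene and less RNA per cell cannot be told apart.

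Acvrl1 encodes a type I receptor for bone morphogenetic proteins of the transforming growth factor beta family and is best known from blood vessel endothelium. It lies 0.125 Mb centromeric of Nr4a1, at 101128522 to 101145336 on the plus strand of chromosome 15 (Entrez 11482, GRCm38). In WT hosts Acvrl1 was at 25.7 and 31.3 RPKM in ctl and at 0.984, 1.48 and 0.996 RPKM in DKO-labelled libraries. Levels in RIPmOVA hosts were 17.5 and 17.0 RPKM in ctl and 0.961 and 0.696 RPKM in DKO-labelled libraries. The genotypes stood far apart in both hosts, and every DKO-labelled library still held reads of the gene, 76 in the lowest. Mean levels were 24.7-fold higher in ctl than in DKO-labelled cells of WT hosts and 20.8-fold higher in RIPmOVA hosts. The log2 fold change, taken on log2(RPKM + 0.5), was -4.14 (SE 0.17, adjusted p = 1.22e-05) in WT hosts and -3.75 (SE 0.18, adjusted p = 6.74e-05) in RIPmOVA hosts. Of the 5 endothelial markers, Pecam1 was at 30.1 to 53.6 RPKM over all libraries, while Cdh5, Kdr, Tek and Emcn were at most 0.42, 0.63, 0.22 and 1.1 RPKM. The antisense gene Gm16031 shares 127 of the exon bases of Acvrl1 (3.0%), and whether the counting used strand is not given in the sources used here.

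Smarcd1 encodes a subunit of the BAF complex, which moves nucleosomes with the energy of ATP. It lies 1.552 Mb centromeric of Nr4a1, at 99702287 to 99713995 on the plus strand (Entrez 83797). In WT hosts Smarcd1 was at 11.6 and 16.5 RPKM in ctl and at 1.94, 1.98 and 1.78 RPKM in DKO-labelled libraries. Levels in RIPmOVA hosts were 16.3 and 18.6 RPKM in ctl and 1.79 and 1.93 RPKM in DKO-labelled libraries. The 5 DKO-labelled libraries lay within a narrow band, well under all 4 ctl libraries. Mean levels were 7.42-fold higher in ctl cells of WT hosts and 9.38-fold higher in ctl cells of RIPmOVA hosts. The log2 fold change was -2.58 (SE 0.15, adjusted p = 0.000175) in WT hosts and -2.92 (SE 0.17, adjusted p = 0.000131) in RIPmOVA hosts. On the opposite strand, Gm17349 shares 7.1% and Gm34939 5.6% of its exon bases.

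Irak4 encodes a kinase that transmits signals of the interleukin-1 and Toll-like receptors. It lies 6.71 Mb centromeric of Nr4a1, at 94543613 to 94568317 on the plus strand (Entrez 266632). In WT hosts Irak4 was at 3.70 and 4.58 RPKM in ctl and at 1.92, 1.98 and 1.35 RPKM in DKO-labelled libraries. The RIPmOVA hosts gave 4.08 and 4.67 RPKM in ctl and 1.58 and 1.95 RPKM in DKO-labelled libraries. All DKO-labelled libraries lay below all ctl libraries. The log2 fold change was -1.05 (SE 0.18, adjusted p = 0.099) in WT hosts, -1.11 (SE 0.20, adjusted p = 0.0262) in RIPmOVA hosts and -1.08 (SE 0.13, adjusted p = 0.00498) over both. Its neighbour Twf1, a twinfilin that binds actin, lies on the opposite strand, and in GENCODE vM21 395 exon bases belong to both genes. Twf1 went the other way, from 6.94 and 7.69 RPKM in ctl to 9.16, 8.17 and 8.82 RPKM in DKO-labelled libraries of WT hosts, with a log2 fold change over both hosts of 0.31 (SE 0.08, adjusted p = 0.0619).

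Amigo2 encodes a membrane protein with leucine-rich repeats that mediates cell adhesion. It lies 4.007 Mb centromeric of Nr4a1, at 97244074 to 97247287 on the minus strand (Entrez 105827). In WT hosts Amigo2 was at 4.4 and 4.8 RPKM in ctl and at 17.4, 11.9 and 10.8 RPKM in DKO-labelled libraries. Levels in RIPmOVA hosts were 3.33 and 4.07 RPKM in ctl and 9.12 and 16.0 RPKM in DKO-labelled libraries. The DKO-labelled libraries were all higher than the ctl libraries and also varied more among themselves. The log2 fold change was 1.41 (SE 0.25, adjusted p = 0.099) in WT hosts, 1.59 (SE 0.27, adjusted p = 0.0223) in RIPmOVA hosts and 1.5 (SE 0.18, adjusted p = 0.00458) over both.

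Prickle1 encodes a protein of the planar cell polarity pathway of Wnt signalling. It lies 7.658 Mb centromeric of Nr4a1, at 93499111 to 93596266 on the minus strand (Entrez 106042), the farthest of the members. In WT hosts Prickle1 was at 3.29 and 3.09 RPKM in ctl and at 22.6, 9.71 and 11.9 RPKM in DKO-labelled libraries. Levels in RIPmOVA hosts were 4.91 and 3.31 RPKM in ctl and 12.6 and 9.62 RPKM in DKO-labelled libraries. Again no DKO-labelled library overlapped the ctl libraries, and DKO-labelled replicate 1 of WT hosts was the highest. The log2 fold change was 1.96 (SE 0.31, adjusted p = 0.0864) in WT hosts and 1.34 (SE 0.34, adjusted p = 0.0771) in RIPmOVA hosts. Only the average over both hosts, at 1.65 (SE 0.23, adjusted p = 0.00799), passed the threshold.

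**Figure D1:**
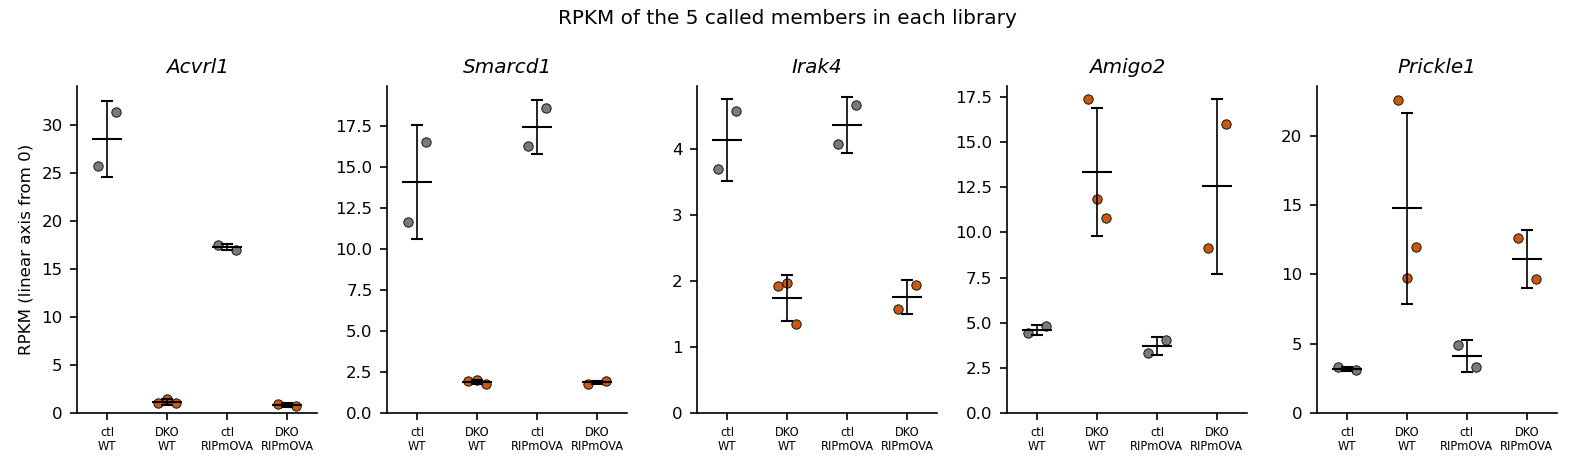
RPKM (linear axes from 0) of Acvrl1, Smarcd1, Irak4, Amigo2 and Prickle1 by group, with each point 1 library, the long bar the mean and the whiskers ± SD (n = 2, 3, 2 and 2 from left to right). DKO-labelled libraries lie below ctl libraries for the first 3 genes and above them for the other two, in both hosts.

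The calls of Acvrl1 and Smarcd1 in each host held under every alternative run. In RIPmOVA hosts the calls of Irak4 and Amigo2 were lost with the summed olfactory and vomeronasal receptor level as a covariate (adjusted p = 0.244 and 0.223), with log2 fold changes of -1.13 and 1.67, and without ctl replicate 1, ctl replicate 2 or DKO-labelled replicate 2 of those hosts. Irak4 also lost that call without DKO-labelled replicate 1 (adjusted p = 0.116), at a pseudocount of 1 (log2 fold change -0.96) and with the filter at 5 RPKM, which removed it. Amigo2 lost it with no intensity trend (adjusted p = 0.0508), and both lost it with no filter on low values (adjusted p = 0.061 for Irak4 and 0.0737 for Amigo2).

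A further 5 members passed the adjusted p alone in the average over hosts, with log2 fold changes under 1. Spats2, Tuba1a, Slc11a2 and Galnt6 fell and Tuba1c rose. With these, 7 members were lower against 1.85% of all tested genes, and 3 were higher against 1.45%. In RIPmOVA hosts by adjusted p alone, 6 members were lower against 1.31% of tested genes and 1 was higher against 0.908%. With the chimera as fixed terms of a replicate block, Slc11a2, Galnt6 and Tuba1a no longer passed in RIPmOVA hosts (adjusted p = 0.0591, 0.0567 and 0.0501). In the average, the same 3 genes did not pass with the olfactory and vomeronasal receptor covariate (adjusted p = 0.116, 0.144 and 0.128), and without a filter on low values neither they nor Spats2 passed. The number of members at this limit in the average ranged from 5 to 10 when 1 library was left out, and it was lowest without ctl replicate 1 of RIPmOVA hosts and at 6 without DKO-labelled replicate 1 of WT hosts.

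Spats2, at 99125926 to 99213215, was at 2.13 and 2.28 RPKM in ctl and at 0.751, 1.03 and 0.949 RPKM in DKO-labelled libraries of WT hosts. Ctl cells of RIPmOVA hosts had 2.36 and 2.25 RPKM and DKO-labelled cells 1.3 and 1.42 RPKM. Every DKO-labelled library was lower than every ctl library, and the log2 fold change over both hosts was -0.77 (SE 0.13, adjusted p = 0.0194). With the chimera as fixed terms of a replicate block, the call of Spats2 at this limit was lost.

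The alpha tubulins Tuba1a, Tuba1b and Tuba1c, building blocks of microtubules, lie side by side between 2.32 and 2.224 Mb centromeric of Nr4a1 and moved unequally. Tuba1a was at 224 and 241 RPKM in ctl and at 193, 187 and 215 RPKM in DKO-labelled libraries of WT hosts, and at 260 and 244 against 184 and 182 RPKM in RIPmOVA hosts. Tuba1c was at 54.6 and 53.2 RPKM in ctl and at 76.4, 67.3 and 79.6 RPKM in DKO-labelled libraries of WT hosts, and at 57.1 and 58.8 against 78.6 and 74.0 RPKM in RIPmOVA hosts. Tuba1a thus lay lower and Tuba1c higher in every DKO-labelled library than in the ctl libraries of the same host. The log2 fold change over both hosts was -0.35 (SE 0.06, adjusted p = 0.0224) for Tuba1a and 0.43 (SE 0.07, adjusted p = 0.0117) for Tuba1c. Tuba1b, at 101 to 129 RPKM, had a log2 fold change of -0.08 (SE 0.08, adjusted p = 0.609). The summed RPKM of the 3 genes was 407.7 and 417.2 in ctl against 390.0, 355.8 and 415.9 in DKO-labelled libraries of WT hosts, and 430.7 and 415.8 against 383.8 and 360.7 in RIPmOVA hosts. The 3 coding sequences are near-identical, and Tuba1a and Tuba1b share exon bases with Gm49450 on the same strand (26.2% and 22.7%), so the split of reads among them is uncertain.

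Slc11a2, at 100387898 to 100424209, encodes a transporter of iron and other divalent metals. It was at 9.25 and 9.54 RPKM in ctl and at 7.03, 7.68 and 8.71 RPKM in DKO-labelled libraries of WT hosts, and at 9.32 and 9.13 against 5.78 and 6.04 RPKM in RIPmOVA hosts. The gap was wider in RIPmOVA hosts, but the test of that difference did not pass (log2 difference -0.34, SE 0.16, adjusted p = 0.534). Galnt6, at 100689915 to 100729376, encodes an enzyme that starts mucin-type O-linked glycans. It was at 103 and 122 RPKM in ctl and at 93.6, 93.1 and 95.9 RPKM in DKO-labelled libraries of WT hosts, and at 101 and 109 against 64.9 and 78.6 RPKM in RIPmOVA hosts. Both genes separated the genotypes in both hosts, with log2 fold changes over both of -0.43 (SE 0.08, adjusted p = 0.0241) for Slc11a2 and -0.40 (SE 0.08, adjusted p = 0.0306) for Galnt6. Galnt6os on the opposite strand shares 11.4% of the exon bases of Galnt6.

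**Figure D2:**
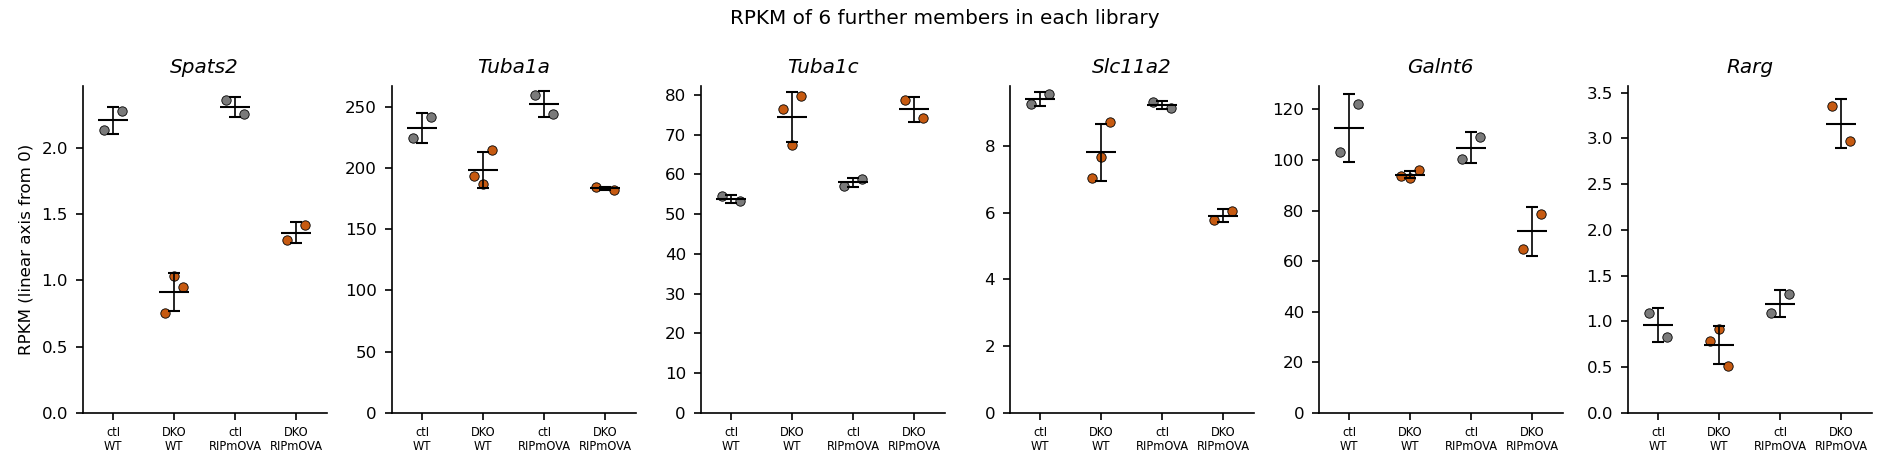
RPKM (linear axes from 0) of Spats2, Tuba1a, Tuba1c, Slc11a2, Galnt6 and Rarg by group, with each point 1 library, the long bar the mean and the whiskers ± SD (n = 2, 3, 2 and 2 from left to right). Genotypes separate in both hosts for the first 5, while Rarg stands out in the DKO-labelled libraries of RIPmOVA hosts, at 3.35 and 2.97 RPKM.

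The members nearest to Nr4a1 were Atg101, Acvr1b and Acvrl1. Atg101, a subunit of the kinase complex that starts autophagy, begins 0.03 Mb telomeric of Nr4a1. It was at 27.5 and 25.3 RPKM in ctl and at 24.7, 22.6 and 26.2 RPKM in DKO-labelled libraries of WT hosts, and at 26.6 and 26.4 against 25.5 and 23.9 RPKM in RIPmOVA hosts. Acvr1b, an activin receptor that lies between Acvrl1 and Nr4a1, was at 1.55 and 1.64 RPKM in ctl and at 1.56, 2.37 and 1.81 RPKM in DKO-labelled libraries of WT hosts, and at 1.39 and 1.2 against 1.71 and 1.8 RPKM in RIPmOVA hosts. Neither gene passed the test, with log2 fold changes over both hosts of -0.10 (SE 0.07, adjusted p = 0.42) for Atg101 and 0.26 (SE 0.14, adjusted p = 0.343) for Acvr1b. Adjacent genes therefore had very different values, since Acvrl1, next to Acvr1b, showed the widest gap between genotypes of all 51 members.

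The WT-host and RIPmOVA-host comparisons share no library, so their agreement could be described. In 17 of the 51 members, the DKO-labelled and ctl libraries did not overlap and lay the same way in both hosts. Of these, 9 were lower in DKO-labelled libraries, where 5.22% of all tested genes were, and 8 were higher, where 5.66% were. No member separated in opposite directions in the hosts, as 217 of 11569 genes did. Beside the 10 genes above, the 17 held Adcy6, an adenylate cyclase, Racgap1, which acts in cytokinesis, Twf1, Eif4b, a translation initiation factor, and Tfcp2, a transcription factor, on the higher side. Cox14, an assembly factor of cytochrome c oxidase, and Letmd1 were on the lower side. None of these 7 reached an adjusted p of 0.05 in the average, and their values ran from 0.0514 for Eif4b to 0.26 for Tfcp2.

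Across the 51 members, the log2 fold changes in the 2 hosts had a Pearson correlation of 0.889 and a Spearman correlation of 0.58. Without Acvrl1 and Smarcd1 the Pearson correlation was 0.68, and without the 5 called members it was 0.369 over 46 genes. It was 0.419 for the other 55 tested genes of the window, 0.0613 for 345 genes farther along chromosome 15 and 0.192 for all genes. Around the other targeted gene, Nr4a3 on chromosome 4, it was -0.331 over 103 genes within 10 Mb. Around Ptprc on chromosome 1, which encodes the congenic marker CD45, it was 0.0872 over 71 genes. The Spearman correlation was 0.446 for the other tested genes of the window, 0.143 farther along chromosome 15 and 0.188 for all genes. Near Nr4a3 the Spearman correlation was -0.00314, and near Ptprc it was 0.0483. These are descriptions across genes of the same libraries, which are not independent replicates.

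**Figure D3:**
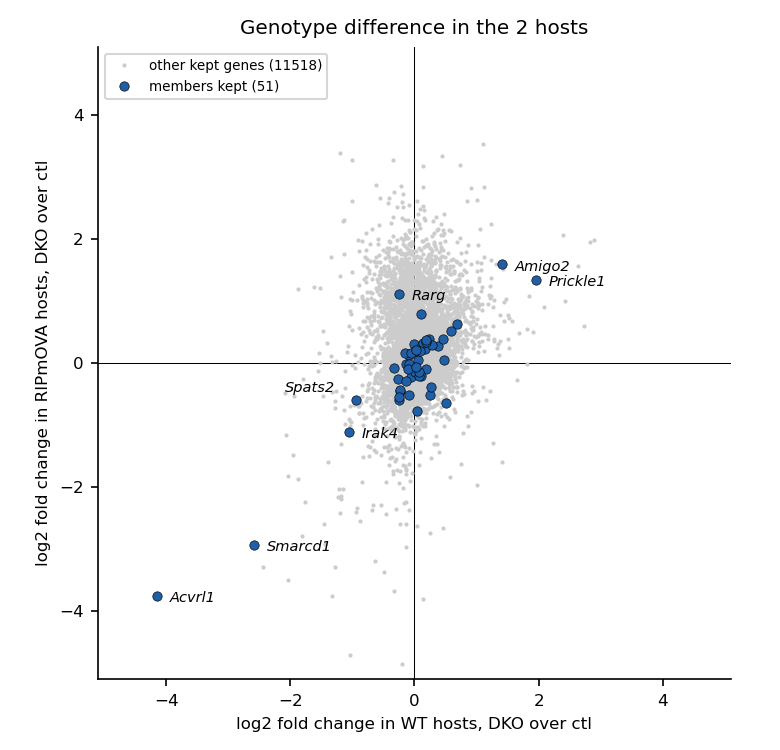
Log2 fold change of DKO-labelled over ctl libraries in WT hosts (horizontal) and RIPmOVA hosts (vertical), on log2(RPKM + 0.5), for the 51 members (filled) and the other 11518 tested genes (grey). Acvrl1 and Smarcd1 lie at the lower left and Amigo2 and Prickle1 at the upper right, near the line of equal change, while most grey points spread along the vertical axis.

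The median of the members' log2 fold changes over both hosts was -0.02, against 0.03 for all genes. Their median absolute log2 fold change was 0.216, against 0.137 for all genes and 0.229 for the other tested genes of the window. Farther along chromosome 15 it was 0.124, near Nr4a3 0.122 and near Ptprc 0.116. Without the 5 called members it was 0.2.

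Position along the window was uneven. All 5 called members lie centromeric of Nr4a1, where 42 members were tested, and none of the 9 tested members on the telomeric side was called in limma. In the average, 1 telomeric member was lower and 2 were higher at an unadjusted p under 0.05. Over all 11569 tested genes, 950 were lower and 1307 higher at that limit. In 16 of the 42 centromeric members the libraries separated the same way in both hosts (38.1%), and this held for 1 of the 9 telomeric ones, Eif4b. The other tested genes of the window showed 11 of 31 (35.5%) on the centromeric and 2 of 24 (8.33%) on the telomeric side. Over all tested genes the count was 1259 of 11569 (10.9%), so the telomeric shares lay near that of all genes. By distance, 6 of 15 members under 1 Mb away separated in both hosts, 3 of 15 at 1 to 2 Mb, 5 of 17 at 2 to 5 Mb and 3 of 4 beyond 5 Mb. The telomeric side is short, since Nr4a1 lies near the end of the chromosome, and the tested members there reach 1.07 Mb.

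**Figure D4:**
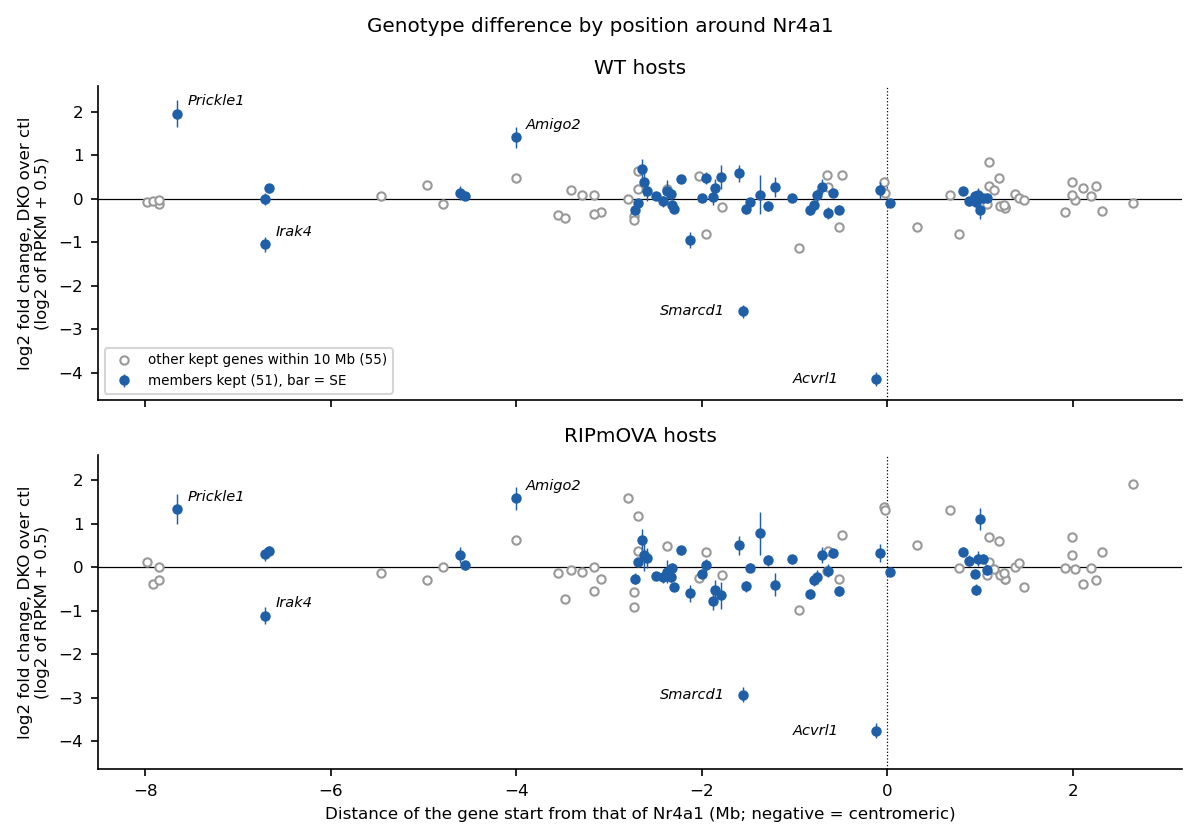
Log2 fold change of DKO-labelled over ctl libraries (log2 of RPKM + 0.5) against the distance of each gene's start from that of Nr4a1 in Mb, in WT hosts (top) and RIPmOVA hosts (bottom). Filled points are the 51 tested members with their SE and open points the other 55 tested genes within 10 Mb. The 5 named members stand at similar heights in both panels, with Acvrl1 next to Nr4a1 at -4.14 and -3.75.

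Of the 55 other tested genes of the window, Mettl7a1 was called, 0.95 Mb centromeric of Nr4a1. It fell from 1.15 and 1.04 RPKM in ctl to 0.081, 0.311 and 0.323 RPKM in DKO-labelled libraries of WT hosts, and from 1.18 and 0.934 to 0.266 and 0.303 RPKM in RIPmOVA hosts (log2 fold change over both -1.06, SE 0.24, adjusted p = 0.0473). Only ctl libraries of Mettl7a1 reached 1 RPKM, so its passing the filter supports nothing about a difference. By adjusted p alone, Slc48a1 (-0.58) and Pfkm (-0.44), both over 3 Mb centromeric, were lower, and Cbx5 (0.53), on the telomeric side, was higher. Over all tested genes, 0.363% were called lower in the average over both hosts, and by adjusted p alone 1.85% were lower and 1.45% higher.

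The roles were chosen with earlier results of these data known. By role, the 12 tested receptor and signalling members held 4 of the 5 called genes. Their median absolute log2 fold change over both hosts was 0.38, with those 4 genes included. Over all tested genes 0.363% were called lower and 0.285% higher, and the median was 0.137. In the 9 chromatin and transcription members the median was 0.0673, and only Smarcd1 was called. Kmt2d, a histone methyltransferase, was at 4.18 to 8.04 RPKM over all libraries without a call, as was Ccnt1, a cyclin of transcription elongation, at 9.06 to 10.2 RPKM. The 7 RNA processing and translation members, 10 cytoskeleton and cell division members and 13 metabolism, transport and other membrane members had medians of 0.203, 0.329 and 0.133, with no call. Levels averaged over the 4 groups were at least 100 RPKM in 6 members, 10 to 100 in 20, 1 to 10 in 24 and under 1 in Lima1.

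Lists of partner genes were read beside Smarcd1 and Acvrl1. Of 21 listed BAF subunits 20 were tested, and besides Smarcd1 none reached an adjusted p of 0.05 in either host or the average in limma. At an unadjusted p under 0.05 in the average, 2 of the 20 were lower, Smarcd1 included, and 0 higher. Of the 11569 tested genes, 950 were lower and 1307 higher at that limit. Smarcd2, a paralog of Smarcd1, was at 43.9 to 49.6 RPKM in all libraries, with a log2 fold change over both hosts of 0.05 (SE 0.06, adjusted p = 0.651). The median log2 fold change of the 20 was -0.09. Of 21 listed receptors and targets of the transforming growth factor beta family 13 were tested. In RIPmOVA hosts Acvrl1 and Tgfbr3, a coreceptor, were called lower, and by adjusted p alone Id2 was lower and Id3 higher, both inhibitors of basic helix-loop-helix factors. In WT hosts Acvrl1 was the one member of this list at an adjusted p of 0.05 or less. Over all tested genes in RIPmOVA hosts, 0.562% were called lower, and by adjusted p alone 1.31% were lower and 0.908% higher. Tgfbr3 was at 15.9 and 20.7 RPKM in ctl and at 19.0, 21.5 and 18.6 RPKM in DKO-labelled libraries of WT hosts, and at 23.9 and 24.6 against 8.51 and 12.3 RPKM in RIPmOVA hosts. The genotypes of Tgfbr3 overlapped in WT hosts and not in RIPmOVA hosts, and the test of the difference between hosts did not pass (log2 interaction -1.31, SE 0.24, adjusted p = 0.168).

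**Figure D5:**
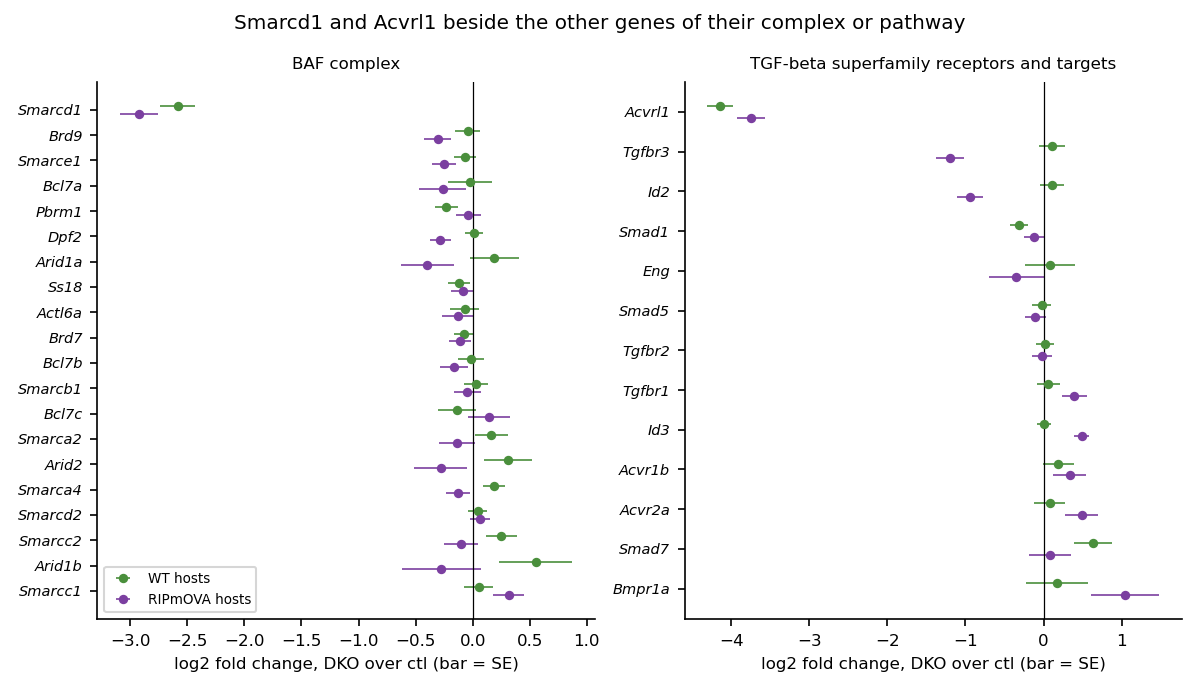
Log2 fold change of DKO-labelled over ctl libraries (log2 of RPKM + 0.5, bars SE) in WT hosts (green) and RIPmOVA hosts (purple) for 20 BAF subunits (left) and 13 receptors and targets of the transforming growth factor beta family (right). Smarcd1 and Acvrl1 lie far left of the rest in both hosts, while Tgfbr3 and Id2 lie left in RIPmOVA hosts, at -1.20 and -0.94.

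The hosts were also compared within each genotype. No member was called between RIPmOVA and WT hosts in ctl cells in limma, where 1.23% of tested genes were. At an unadjusted p under 0.05 there were 7 of the 51 members and 1657 of the 11569 tested genes in ctl cells, and 11 members and 2041 genes in DKO-labelled cells. Acvrl1 in ctl cells was lower in RIPmOVA hosts, with a log2 difference of -0.70 (SE 0.18) that missed the threshold (adjusted p = 0.102). In DKO-labelled cells 1 member was called, against 1.68% of tested genes. This was Rarg, which encodes a retinoic acid receptor, 1.004 Mb telomeric of Nr4a1, named here after its values were seen. Rarg was at 1.09 and 0.829 RPKM in ctl and at 0.791, 0.915 and 0.511 RPKM in DKO-labelled libraries of WT hosts, and at 1.09 and 1.3 against 3.35 and 2.97 RPKM in RIPmOVA hosts. The DKO-labelled libraries of RIPmOVA hosts stood above all 7 others. The log2 difference between hosts in DKO-labelled cells was 1.58 (SE 0.23, adjusted p = 0.00737), and without DKO-labelled replicate 1 of RIPmOVA hosts it was no longer called (adjusted p = 0.0964). Between genotypes in RIPmOVA hosts, Rarg had a log2 fold change of 1.11 (adjusted p = 0.0573), and with the chimera as a random replicate block it was called (adjusted p = 0.0417), while with the chimera as fixed terms it was not (adjusted p = 0.133).

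The genotype difference itself was compared between hosts by the interaction of host and genotype. No member was called in limma, where 0.0173% of tested genes were. At an unadjusted p under 0.05 there were 5 of the 51 members and 1078 of the 11569 tested genes. For the 5 called members the log2 interaction ran from -0.61 (SE 0.46) for Prickle1 to 0.39 (SE 0.25) for Acvrl1. Without ctl replicate 2 of WT hosts, Fmnl3, Nckap5l and Tmbim6, which lie close together 1.883 to 1.796 Mb centromeric of Nr4a1, were called in the interaction. That setting called 51 genes higher and 114 lower of 11544 over the whole table, where all 9 libraries gave 0 and 2. Nckap5l was at 4.91 and 12.1 RPKM in ctl and at 11.2, 12.1 and 10.4 RPKM in DKO-labelled libraries of WT hosts, and at 9.64 and 8.96 against 5.89 and 5.69 RPKM in RIPmOVA hosts. Ctl replicate 1 of WT hosts stood apart from ctl replicate 2 for all 3 genes, so the call rests on that library.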

How the data were processed

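The deposited table holds RPKM values of 24594 genes in 9 libraries, rounded to 3 decimals. As the paper's methods state, the authors made cDNA with SMART-seq v4 and Nextera XT libraries for paired-end sequencing. They aligned to mm10 by STAR with GENCODE vM17, dropped duplicates marked by Picard, counted exonic reads per Entrez gene in GenomicRanges, and scaled them to RPKM by exon length and exonic reads. A further deposited column, other than the RPKM columns, gives the exon length in bases. No version of STAR or Picard and no strand setting is given in the sources used here, which leaves genes that overlap or are near-identical uncertain.

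Depth was recovered from the steps of low RPKM values, where 1 step is 1 read. In each library 100% of the low values checked were whole within 0.15 reads. Depths of 15520000 to 25060000 reads put the floor of 3 reads at 0.12 to 0.193 RPKM for a gene of 1 kb. Without molecular identifiers this covers counting error only.

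Genes with at least 1 RPKM in at least 2 libraries were kept (11569). Log2(RPKM + 0.5) was fitted with group means over all 9 libraries in limma 3.58.1 (R 4.3.3, eBayes with an intensity trend). Adjusted p-values are two-sided, by Benjamini-Hochberg over the kept genes. Calls needed an adjusted p of at most 0.05 and a log2 fold change of 1 or more in size. The pseudocount makes fold changes of low genes too small. The model was checked on simulated data with planted changes larger than the call threshold, without host effects or chimera pairing. Positions and the RefSeq promoters are of GRCm38.p6, the build that mm10 names (24570 genes matched by Entrez ID), overlaps come from GENCODE vM21, and 47 members had a promoter. Tables and plots were made in Python 3.11.15 (pandas 2.3.3, numpy 2.4.6, matplotlib 3.10.9 and scipy 1.17.1).

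Members, roles and lists were chosen with earlier results of these data known. Values in every library are given for members called in a genotype comparison or the average, those at the adjusted p alone in the average, and the 3 nearest to Nr4a1. Other genes were named by their place in a list or after their values were seen. Same-numbered ctl and DKO-labelled libraries of a host come from the same chimera by their labels, which pairs them. Deviations from group means correlated by -0.0793 in each RIPmOVA pair, 0.0059 in WT pair 1 and -0.239 in WT pair 2, with a consensus of 0.104 in limma. With 2 libraries in each RIPmOVA group the deviations mirror each other, so those pairs give a single value by construction. The alternatives were other pseudocounts (0.1 and 1), other filters (none, and 5 RPKM), median-of-ratios and quantile scaling, no trend, the compared groups alone, the chimera as a random or fixed replicate block, the summed olfactory and vomeronasal receptor RPKM as a covariate, and leaving out each library. The main fit held no chimera term, so its p-values measure the spread between libraries within groups, with each library taken as a separate unit.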

Additional observations from a re-analysis of the deposited data

How the results depend on the processing

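In the average over both hosts, the members called numbered 5 under every leave-one-out setting and 4 to 5 under the others, where Irak4 dropped out at a pseudocount of 1 (log2 fold change -0.93) and with the filter at 5 RPKM, which removed it, and Prickle1 without a filter (adjusted p = 0.0629). In WT hosts the count was 2 to 3 when a library was left out. In RIPmOVA hosts, where 4 were called, it was 2 with no filter and 2 with the covariate, and 2 to 5 when a library was left out, lowest without ctl replicate 1, ctl replicate 2 or DKO-labelled replicate 2. The interaction count of 0 became 3 without ctl replicate 2 of WT hosts, where all-gene calls went from 0 higher and 2 lower to 51 and 114, and stayed at 0 without any other library. The host count in ctl cells was 0 to 1 (Dip2b without ctl replicate 2 of WT hosts) and in DKO-labelled cells 0 to 1, and Rarg was lost to the filter at 5 RPKM (0 called). Members separating the same way in both hosts were 17 to 23 when a library was left out. Acvr1b in RIPmOVA hosts reversed with quantile scaling (-0.000844).

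The chimera as a replicate block kept 5 members called in the average, as random or as fixed terms, and changed no call of a member except that of Rarg in RIPmOVA hosts. By adjusted p alone, the fixed block lost Spats2 in the average and Slc11a2, Galnt6 and Tuba1a in RIPmOVA hosts. The fixed block left 0 genes higher and 2 lower in WT hosts over all genes, against 1 and 6. Over all genes in RIPmOVA hosts, 59 higher and 65 lower calls became 64 and 137 with quantile scaling and 2 and 18 with the covariate. In the average, 33 and 42 became 24 and 82 with quantile scaling. Of the single-gene values, 677 kept their direction and side of the threshold, 15 lost the call and 6 gained it. Groups of 2 or 3 libraries limit every test here. Where a library left 1 in a group, that one was taken to vary like the others.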
